A study of Mus musculus with 6 samples.

Results

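Casp1 and 8 other genes of the inflammasome and of the interleukin-1 family were followed in the sciatic nerve of newborn mice at postnatal day 2. They are the sensor gene Nlrp3, the adaptor gene Pycard, the caspase genes Casp1, Casp4 and Casp12, the pore gene Gsdmd and the cytokine genes Il1b, Il18 and Il33. They were chosen by gene symbol. All 9 were on the array, with 12 of the 34958 probe sets that carry a single symbol, and they make up 9 of 18194 named genes. The level of a gene is that of its probe set with the highest mean over the 6 arrays. The choice was made with the results of this comparison known, and the strong difference in Casp1 was already in view. The differences of these 9 genes are therefore given as a description, without p-values.

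The double knockout (dKO) nerves came from DhhCre+ pups in which HDAC1 and HDAC2, a pair of histone deacetylases, were deleted in Schwann cells, the glia of peripheral nerve. The Cre recombinase is driven by the desert hedgehog gene, which is active in the Schwann cell lineage, and the labels give peripheral hypomyelination as the state of these nerves. Control nerves came from DhhCre– littermates, and the labels do not say which other alleles the controls carry. Both groups were of mixed strain and had the perineurium, the sheath around the nerve, removed, and each group had 3 arrays, named here by group and replicate number. How many pups each sample pools is not given in the labels, and p-values therefore measure the spread between these samples.

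An inflammasome is a protein platform that a cell builds when a sensor such as Nlrp3 meets microbial products or signs of damage. The adaptor Pycard (also called ASC) links the sensor to pro-caspase-1, which becomes active on the platform and then cuts the precursors of interleukin-1 beta and interleukin-18 and the pore protein gasdermin D. The cut gasdermin D opens the cell membrane, a lytic form of death called pyroptosis. Casp4 (caspase-11 in the older mouse literature) senses bacterial lipopolysaccharide inside the cell and also cuts gasdermin D. Macrophages are the cells best known for this machinery, and in most cells Nlrp3 and Il1b are transcribed at a low level until an inflammatory stimulus reaches the cell.

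Values are deposited log2 expression, from 1.66 to 14.94. A difference is the dKO mean less the control mean, given with its standard error (SE). The limma fit over 14550 genes called 3198 of them at an adjusted p under 0.05, or 22.0%, of which 1833 (12.6%) were higher and 1365 (9.38%) lower in dKO. The median difference of all tested genes was 0.01. Hdac1 fell by 1.55 (SE 0.13, limma adjusted p = 0.000271) and Hdac2 fell by 1.26 (SE 0.15, limma adjusted p = 0.00103), with dKO below control on every array for both. Sox10, a transcription factor needed for Schwann cells to form, lay between 9.92 and 10.99 on all 6 arrays, so nerve glia were present in both groups.

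Casp1, Casp4 and Il33 were several-fold higher in dKO nerves, and Gsdmd was higher by a smaller amount. Casp12, Il1b and Il18 had overlapping groups, and Pycard and Nlrp3 were slightly lower in dKO. Of the 9 genes, 8 passed the filter (log2 of 4 or more on 3 or more arrays), and Il18 did not. The fit called 4 of the 8 higher and 0 lower in dKO, beside 12.6% and 9.38% of all tested genes. All dKO arrays lay above all control arrays for 4 of the 9 genes and below them for 2, beside 22.6% and 18.4% of all tested genes (40.9% in either direction). Nothing is read from these counts, because the choice of genes used this comparison.

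**Figure D1:**
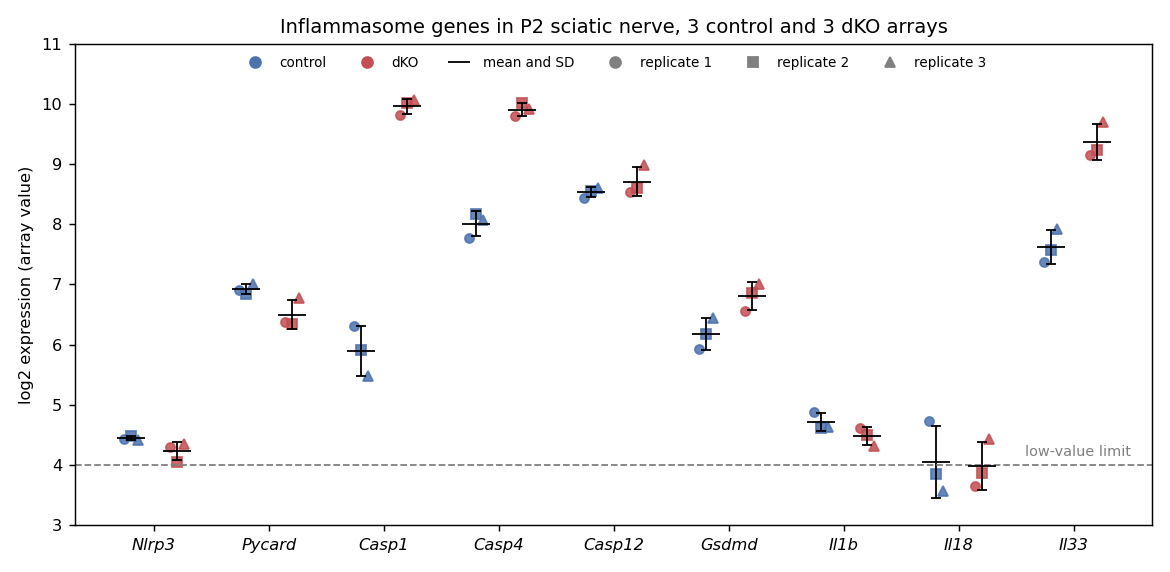
Log2 expression (vertical axis) of the 9 genes on each of the 3 control (blue) and 3 dKO (red) arrays, with the group mean and SD in black, the replicate number as the marker shape and the low-value limit of 4 as a dashed line. Casp1 was between 5.48 and 6.31 in control and between 9.82 and 10.06 in dKO, whereas Nlrp3, Il1b and Il18 stayed near the limit in both groups.

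Nlrp3 encodes the best studied sensor. It read 4.43, 4.48 and 4.42 on control arrays 1 to 3 and 4.30, 4.05 and 4.34 on dKO arrays 1 to 3. All 6 values lay between 4.05 and 4.48, just over the limit of 4 used as a filter. The dKO arrays lay below the control arrays by a gap of 0.07, and the difference was -0.21 (SE 0.14).

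Pycard encodes the adaptor that joins sensor and caspase. Its brightest probe set read 6.91, 6.84 and 7.01 in control and 6.37, 6.34 and 6.78 in dKO nerves. The groups were apart by 0.06, with dKO 3 closest to the controls, and the difference was -0.42 (SE 0.16). The difference was -0.56 without dKO 3 and -0.50 with each array centred on the median of its tested genes. A second probe set differed by -0.41 (SE 0.13), with dKO below control by 0.30. The third, at 4.05 to 5.0, differed by 0.21 (SE 0.24), and with all 3 averaged the difference was -0.21.

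Casp1 encodes the protease at the centre of the platform. It read 6.31, 5.91 and 5.48 in control nerves and 9.82, 10.01 and 10.06 in dKO nerves. The lowest dKO array was 3.51 above the highest control array. The means were 5.90 ± 0.42 and 9.96 ± 0.13 (SD, n = 3 each), a difference of 4.06 (SE 0.21) or 16.7-fold. Only 11 of the 14550 tested genes had a higher difference, since Casp1 stood at rank 12. With any 1 array left out the difference stayed between 3.85 and 4.27. The spread among control arrays exceeded that among dKO arrays, and a single probe set measured the gene.

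Casp4 read 7.78, 8.18 and 8.07 in control and 9.80, 10.01 and 9.92 in dKO nerves. Every dKO array was at least 1.62 above every control array. The difference was 1.90 (SE 0.16), or 3.73-fold, at rank 193 of 14550, and it ranged from 1.78 to 1.98 with 1 array left out. Casp4 also had a single probe set. Casp1, Casp4 and Casp12 are related in sequence, and the letters of the array's probes were not at hand, so signal of one gene on the probe set of another was not tested.

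Casp12, whose protein has been linked to stress of the endoplasmic reticulum, differed little. It read 8.44, 8.56 and 8.61 in control and 8.54, 8.60 and 8.99 in dKO nerves, and the groups overlapped. The difference was 0.17 (SE 0.16), and 0.03 without dKO 3, the highest array. Its other probe set differed by 0.16 (SE 0.22).

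These 3 caspase genes lie next to each other on chromosome 9, and in the RefSeq gene table of assembly GRCm38.p6 there are 0 genes of any kind between them. All 8 of their nearest protein-coding neighbours, 4 on each side, were on the array. Gria4, a subunit of AMPA-type glutamate receptors and the neighbour on the Casp1 side, read 7.49, 8.05 and 8.06 in control and 9.46, 9.45 and 9.44 in dKO nerves. It rose by 1.58 (SE 0.18, limma adjusted p = 0.000763), with a gap of 1.38 between the groups, and its other 2 probe sets rose by 1.15 and 1.25. Pdgfd, a platelet-derived growth factor gene on the Casp12 side, rose by 0.63 (SE 0.15, limma adjusted p = 0.0208), and this call did not hold when control 1, control 3 or dKO 2 was left out (adjusted p up to 0.0773). Its probe sets differed by 0.34 to 1.0.

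The remaining neighbours differed by less at the level of the gene. Beyond Gria4, Msantd4 differed by -0.07, Kbtbd3 by -0.19 and Aasdhppt by -0.07, and beyond Pdgfd, Dync2h1 differed by 0.29 and Dcun1d5 by 0.10. None of these 5 passed in the limma fit (adjusted p from 0.25 to 0.805). A dim probe set of Dcun1d5 at 4.43 to 5.08 was called when single probe sets were tested (0.47, adjusted p = 0.0483). In that limma fit the dimmer probe sets of Aasdhppt differed by -0.38, -0.31 and -0.14 (adjusted p = 0.089, 0.236 and 0.623). For those at -0.38 and -0.31, dKO lay below control on every array. Ddi1 was under the limit. Gria4, Casp1, Casp4 and Pdgfd were thus higher in dKO on every array, and Casp12, which lies between Casp4 and Pdgfd, had overlapping groups.

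**Figure D2:**
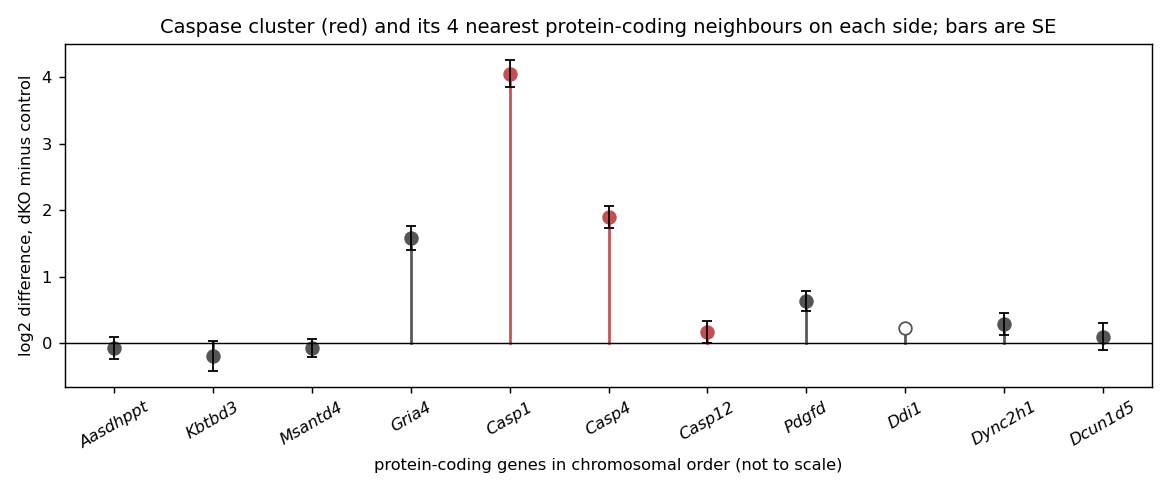
Log2 difference between dKO and control (vertical axis, dKO minus control, bars are SE) for Casp1, Casp4 and Casp12 (red) and the 4 nearest protein-coding genes on each side (grey) in chromosomal order, which is not to scale. The differences were 1.58 for Gria4, 4.06 for Casp1, 1.90 for Casp4, 0.17 for Casp12 and 0.63 for Pdgfd, and the open circle marks Ddi1, which was under the low-value limit.

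The promoters of the 3 caspase genes are shown because these adjacent genes had unlike differences, and that of Il33 because its difference was also several-fold. Each sequence runs from 250 bases before to 50 bases after a RefSeq start site in GRCm38.p6, on the plus strand of the chromosome. Capitals mark matches, on either strand, to any of 4 motifs, TGANTCA (AP-1), GGGA with any 4 bases and then CC (NF-kappaB), TTCNNNGAA (STAT) and GAAA with any 2 bases and then GAAA (the interferon-stimulated response element). A base that matches more than one motif would be counted for each.
Casp1, chr9:5298267-5298566: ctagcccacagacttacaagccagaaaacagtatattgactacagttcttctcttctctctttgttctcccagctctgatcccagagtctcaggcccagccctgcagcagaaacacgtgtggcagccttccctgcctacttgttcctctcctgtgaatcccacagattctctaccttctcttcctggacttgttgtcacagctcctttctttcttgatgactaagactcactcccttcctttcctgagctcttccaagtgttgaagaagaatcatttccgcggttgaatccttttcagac
Casp4, chr9:5308599-5308898: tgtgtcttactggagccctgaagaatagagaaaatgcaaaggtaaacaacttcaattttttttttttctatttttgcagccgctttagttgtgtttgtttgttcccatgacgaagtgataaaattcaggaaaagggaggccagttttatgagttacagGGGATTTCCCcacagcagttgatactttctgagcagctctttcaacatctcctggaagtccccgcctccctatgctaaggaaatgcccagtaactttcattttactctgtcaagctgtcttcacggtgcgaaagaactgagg
Casp12, chr9:5345226-5345525: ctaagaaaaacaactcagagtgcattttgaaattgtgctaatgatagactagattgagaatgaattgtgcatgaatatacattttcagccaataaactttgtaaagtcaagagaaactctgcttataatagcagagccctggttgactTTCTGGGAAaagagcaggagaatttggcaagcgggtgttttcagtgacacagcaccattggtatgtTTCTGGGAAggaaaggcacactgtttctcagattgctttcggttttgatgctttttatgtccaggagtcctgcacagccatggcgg
Il33, chr19:29924863-29925162: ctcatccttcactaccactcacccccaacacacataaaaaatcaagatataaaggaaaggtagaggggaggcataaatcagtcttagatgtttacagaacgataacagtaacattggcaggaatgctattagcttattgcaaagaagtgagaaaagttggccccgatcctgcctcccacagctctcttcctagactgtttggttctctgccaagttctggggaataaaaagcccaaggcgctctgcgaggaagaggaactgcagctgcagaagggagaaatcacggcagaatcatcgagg

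The Casp4 window held 1 match to the NF-kappaB letters, GGGATTTCCC, which begins 92 bases before the start. RefSeq has another Casp4 start nearby, and in its window the same match begins 103 bases upstream. Casp12 had 2 copies of TTCTGGGAA, matches to the STAT letters that begin 102 and 36 bases before the start. The Casp1 window and both RefSeq windows of Il33 had 0 matches to any of the 4 motifs. RefSeq windows were at hand for 8 of the 9 genes, 11 windows in all, and the only other match among them was GGGAACCCCC in 1 of the Nlrp3 windows, to the NF-kappaB letters. Of all 32851 promoter windows of that length, 20.7% held the NF-kappaB letters, 8.3% the STAT letters, 7.81% the AP-1 letters and 3.44% the interferon element. A match is a run of letters and not a bound site, and the absence of one says only that these letters are not in the window.

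Gsdmd encodes gasdermin D, the protein that caspase-1 and caspase-11 cut to open the cell membrane. It read 5.92, 6.17 and 6.45 in control and 6.55, 6.86 and 7.01 in dKO nerves. The groups were apart by 0.10, between control 3 and dKO 1. The difference was 0.63 (SE 0.19), or 1.54-fold. It was 0.50 without control 1, 0.62 without control 2, 0.60 without dKO 2 and 0.53 without dKO 3. Its call, 1 of the 4 counted above, held in 5 of 13 alternative settings. Nothing is read from that call, because the choice of genes used this comparison.

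The substrates of caspase-1 among the cytokines were near the limit. Il1b, which encodes the precursor of interleukin-1 beta, read 4.88, 4.61 and 4.63 in control and 4.62, 4.49 and 4.32 in dKO nerves. The groups overlapped by 0.01 and the difference was -0.23 (SE 0.15). Il18 read 4.73, 3.84 and 3.57 in control and 3.65, 3.86 and 4.43 in dKO nerves. It reached the limit on 2 of the 6 arrays, 1 in each group, and was not tested.

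Il33 encodes interleukin-33, a cytokine stored in the nucleus and released from damaged cells, which needs no cut by caspase-1 to be active. It read 7.37, 7.57 and 7.93 in control and 9.15, 9.24 and 9.71 in dKO nerves. Every dKO array was at least 1.22 above every control array. The difference was 1.74 (SE 0.21), or 3.35-fold, at rank 252 of 14550, and it ranged from 1.57 without dKO 3 to 1.90 without control 3.

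**Figure D3:**
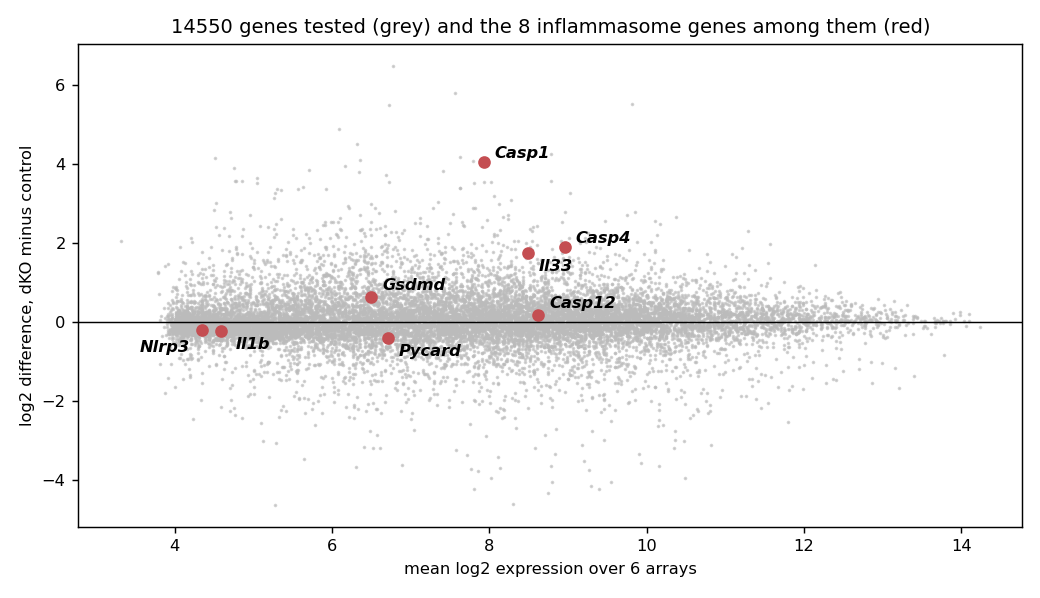
Log2 difference between dKO and control (vertical axis) against mean log2 expression over the 6 arrays (horizontal axis) for the 14550 genes tested (grey) and the 8 tested inflammasome genes (red). Casp1 stands near the upper edge of the cloud at 4.06, Casp4 and Il33 at 1.90 and 1.74, and Nlrp3 and Il1b lie at the dim end close to 0.

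The array measures RNA of the whole nerve sample, so more cells of a type and more RNA per cell cannot be told apart. Macrophages carry much of this machinery, and some of their markers rose in dKO nerves. All 19 listed markers were measured, and 18 passed the filter. Of these, 6 rose, 0 fell and 12 did not pass in the limma fit (33.3% called higher, beside 12.6% of all tested genes). The median difference was 0.80, with differences from -0.11 to 1.35. All dKO arrays lay above all control arrays for 12 of the 18 and below them for 0, beside 22.6% and 18.4% of all tested genes. Ctss, the lysosomal protease cathepsin S, rose by 1.25 (SE 0.20, limma adjusted p = 0.00347). Mpeg1, which encodes a pore protein of macrophages, rose by 1.01 (SE 0.21, limma adjusted p = 0.0110), and the complement gene C1qa by 0.84 (adjusted p = 0.00922). Aif1, C1qc and Tyrobp rose by 1.06, 1.13 and 0.92, calls lost with some arrays left out (adjusted p up to 0.0853, 0.104 and 0.135). The number called was 4, 3 and 3 without control 1, 2 and 3, and 7, 5 and 7 without dKO 1, 2 and 3. Itgam, another defining marker, was under the limit on all arrays.

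The summed linear level of the 19 markers was 5158 to 6530 on control arrays and 8648 to 17793 on dKO arrays. The means differed 2.01-fold, and 1.5-fold without dKO 3, which held the highest sum. Casp1 differed 16.7-fold, and by 4.02 on the log2 scale without dKO 3. Between dKO 2 and dKO 3 the marker sum went from 8648 to 17793. A linear sum follows its brightest markers, and between these arrays Laptm5 went from 10.67 to 11.96 and Csf1r from 10.19 to 11.40. Of the dimmer markers, Fcer1g went from 6.84 to 8.05, C1qc from 7.72 to 8.75 and Adgre1 from 5.66 to 6.47. C1qa went from 6.34 to 6.55 and Cd163 from 6.12 to 6.10. Cd163 was the only listed marker that did not rise between dKO 2 and dKO 3. Over all arrays Laptm5 differed by 1.04, and by 0.29 with its 5 probe sets averaged. Casp1 went from 10.01 to 10.06 and Casp4 from 10.01 to 9.92 between dKO 2 and dKO 3. Il33 went from 9.24 to 9.71 and Gsdmd from 6.86 to 7.01. The part of macrophages in the differences of these 4 genes was not tested.

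**Figure D4:**
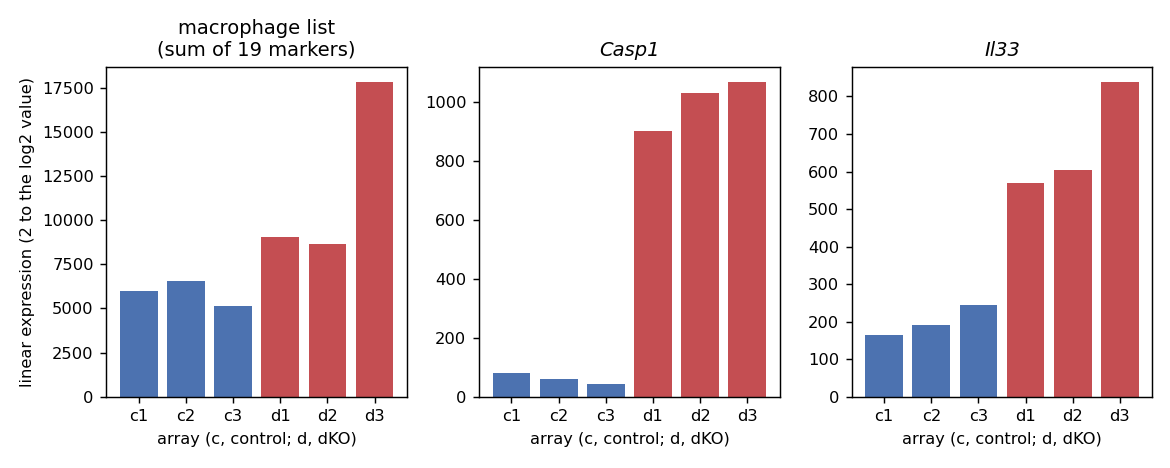
Linear expression (2 to the power of the log2 value, vertical axes with separate scales from 0) on each control (c, blue) and dKO (d, red) array for the sum of 19 macrophage markers, Casp1 and Il33. The marker sum, which follows its brightest markers, was 17793 on dKO 3 and 9016 and 8648 on dKO 1 and dKO 2. Casp1 was at a like level on all 3 dKO arrays.

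Most markers of other inflammatory cells were low, but the neutrophil marker S100a9 read 5.67 to 6.98. Of 10 neutrophil genes 9 were measured and 5 of these, Ngp, Elane, Mpo, Csf3r and Cxcr2, were under the limit. S100a8 and S100a9, calgranulin genes, differed by 0.35 (limma adjusted p = 0.497) and 0.41 (adjusted p = 0.361). The summed level was 168 to 218 in control and 184 to 296 in dKO. Lymphocyte markers summed to 159 to 176 and 152 to 199 and mast cell markers to 131 to 165 and 124 to 154. Across these 3 lists limma called 0 genes, and 1 mast cell gene, Kit, had an unadjusted p under 0.05 (-0.52, adjusted p = 0.0927). Among genes that failed the filter, the lymphocyte gene Il7r read 2.60 to 3.15 in control and 3.47 to 4.12 in dKO. For Cd3e and Tpsab1, which also failed it, dKO lay below control on every array.

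Stromal cells are a known source of Il33 in many tissues. The perineurium had been removed, but its markers are kept in the list as a check. Of 10 fibroblast and perineurial markers 5 rose and 1 fell (60.0% called, beside 22.0% of all tested genes), with a median of 0.69. Pdgfra, a receptor of nerve fibroblasts, rose by 0.78 (SE 0.15, limma adjusted p = 0.00717). The tight junction gene Cldn1 rose by 1.70 (SE 0.40, adjusted p = 0.0173), and by 0.83 with its 4 probe sets averaged. The matrix gene Dcn rose by 0.86 (SE 0.20, adjusted p = 0.0162). Dropping control 2 or dKO 2 ended the call of Dcn, and dropping control 2, dKO 1 or dKO 2 that of Cldn1, with an adjusted p of at most 0.0621 and 0.0589. The number called higher was 1 without control 2 or dKO 2 and 3 without control 1, dKO 1 or dKO 3. The summed level was 27711 to 30254 in control and 34669 to 35501 in dKO, a ratio of 1.22. Most of that sum came from the collagen genes Col1a1 and Col3a1, which differed by 0.12 and 0.11, and the median marker differed 1.62-fold. The part of these cells in the level of Il33 was not tested.

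Other genes of the pathway were taken from 8 lists of 134 genes, written from general knowledge with earlier results of these data known. Of these, 99 were tested and 21 were called, 13 higher and 8 lower. That share of 21.2% was close to the 22.0% of all tested genes, and the median difference was 0.09 beside 0.01. Without control 2 or dKO 2, 12 and 13 genes were called.

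Among other inflammasome sensors and cofactors, 3 of 10 tested genes rose, 1 fell and 6 did not pass, with a median of 0.10. P2rx7, the ATP-gated channel whose opening is a classical trigger of the Nlrp3 inflammasome, read 9.87, 10.40 and 10.26 in control and 9.09, 8.93 and 8.20 in dKO nerves. It fell by 1.44 (SE 0.25, limma adjusted p = 0.00522), and the groups did not overlap. Dhx33, an RNA helicase reported as an RNA sensor, rose by 0.75 (SE 0.14, limma adjusted p = 0.00636). Panx1, a pannexin channel, rose by 0.56, but not past the threshold when control 1, control 3 or dKO 2 was dropped (adjusted p up to 0.0693). Txnip, a thioredoxin-binding protein, rose by 1.01, and dropping control 1, control 2, dKO 1 or dKO 2 ended its call (adjusted p up to 0.116). In all, 1 gene of this list was called higher when control 1 or dKO 2 was dropped. The DNA sensor Aim2 differed by 0.00 (SE 0.17, adjusted p = 0.989), and Nek7, a kinase that binds Nlrp3, by 0.03 (adjusted p = 0.903). Nlrp12, Naip5 and Mefv were under the limit.

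The tested genes through which interleukin-1 family cytokines act did not pass. The list held 15 genes, and Il1rl1, the receptor gene for interleukin-33, was not measured here. Of 7 tested ligands, receptors and antagonists limma called 0, and 0 had an unadjusted p under 0.05. The receptor genes Il1r1 and Il1rap differed by -0.25 (adjusted p = 0.277) and -0.21 (adjusted p = 0.390). Il18bp, which encodes a soluble binder of interleukin-18, differed by less than 0.01 (adjusted p = 0.997). Il1a, the antagonist gene Il1rn, Il1r2, Il18r1 and Il1rapl2 were under the limit.

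Of 16 genes of interleukin-1 and Toll-like receptor signalling, 2 rose, 1 fell and 13 did not pass, with a median of 0.03. Tlr4, the cell surface receptor for lipopolysaccharide, read 5.21, 6.14 and 6.24 in control and 7.0, 7.32 and 7.83 in dKO nerves. It rose by 1.52 (SE 0.31, limma adjusted p = 0.00994), and by 0.80 with its 4 probe sets averaged. Irak3, which encodes a brake on this signalling, rose by 1.19 (SE 0.24, limma adjusted p = 0.0103) from control values around the limit. Tab1 fell by 0.60, and its call ended when control 2, control 3 or dKO 1 was dropped (adjusted p up to 0.08). With the probe sets of Tab1 averaged the difference was -0.34 (adjusted p = 0.0575). Cd14, the partner of Tlr4, was under the limit.

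Of 15 genes of NF-kappaB and its targets, 2 rose, 3 fell and 10 did not pass, with a median of 0.03. The inhibitor gene Nfkbib fell by 0.93 (SE 0.15, limma adjusted p = 0.00385), but by 0.38 (adjusted p = 0.133) with its 2 probe sets averaged. The adhesion gene Icam1, the inhibitor gene Nfkbie, Tnfaip3 and the subunit gene Rela differed by 0.85, 0.87, -0.78 and -0.73, and each of these calls was lost with some arrays left out (adjusted p up to 0.0961, 0.121, 0.0993 and 0.116). With its probe sets averaged Tnfaip3 differed by -0.47 (adjusted p = 0.053). Rela was added after its value was seen. Dropping control 1 or dKO 3 left 0 genes of the list called higher and 2 lower. Tnf, Il6 and Ptgs2, targets that inflammation induces, were under the limit.

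Of 24 genes of interferon signalling, 1 fell and 23 did not pass. The median was 0.18, and it was -0.08 without dKO 3 and 0.37 without dKO 1. Ifit2 fell by 0.62 (limma adjusted p = 0.0442), and its call ended when any array other than control 1 was dropped (adjusted p up to 0.136). Irf1 and Irf8, transcription factors that interferon induces, differed by -0.14 (adjusted p = 0.692) and 0.31 (adjusted p = 0.450).

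Among 4 tested caspase genes outside the cluster, Casp8 rose and 3 did not pass. Casp8, the initiator caspase of death receptors, read 7.23, 7.40 and 7.60 in control and 8.02, 8.11 and 8.16 in dKO nerves, a difference of 0.69 (SE 0.15, limma adjusted p = 0.0128). Casp2, Casp6 and Casp9 differed by 0.13, -0.11 and 0.22. The adjusted p of Casp8 ran from 0.00727 to 0.0473 over 13 alternatives.

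Genes of lytic death outside the inflammasome moved both ways, with 3 of 13 higher and 2 lower and a median of -0.03. Gsdme, another gasdermin, which is opened by caspase-3, read 11.78, 11.88 and 11.89 in control and 10.58, 10.05 and 8.61 in dKO nerves. It fell by 2.10 (SE 0.43, limma adjusted p = 0.0102), a direction opposite to that of Gsdmd, and dKO 3 was the lowest array. Ripk3, the kinase of necroptosis, rose by 1.15 (SE 0.22, limma adjusted p = 0.00744), and Tnfrsf1a, a tumour necrosis factor receptor named after its value was seen, by 0.85 (SE 0.14, adjusted p = 0.00368). Tradd rose by 0.92 and Cflar fell by 1.02, calls lost with some arrays left out (adjusted p up to 0.0919 and 0.141). With the probe sets of each gene averaged, the differences of Tradd and Cflar were 0.38 and -0.48. Dropping control 1, control 2 or dKO 2 left 2 genes of the list called higher and 1 lower.

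Of 10 caspase-1 regulators and other CARD genes, 2 rose and 8 did not pass, with a median of 0.51, and 0.15 without dKO 3. Card10, a scaffold of NF-kappaB signalling, rose by 0.77 (SE 0.16, limma adjusted p = 0.0119). The scavenger receptor gene Cd36 rose by 0.87, and its call ended when any array other than dKO 1 was dropped (adjusted p up to 0.109).

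**Figure D5:**
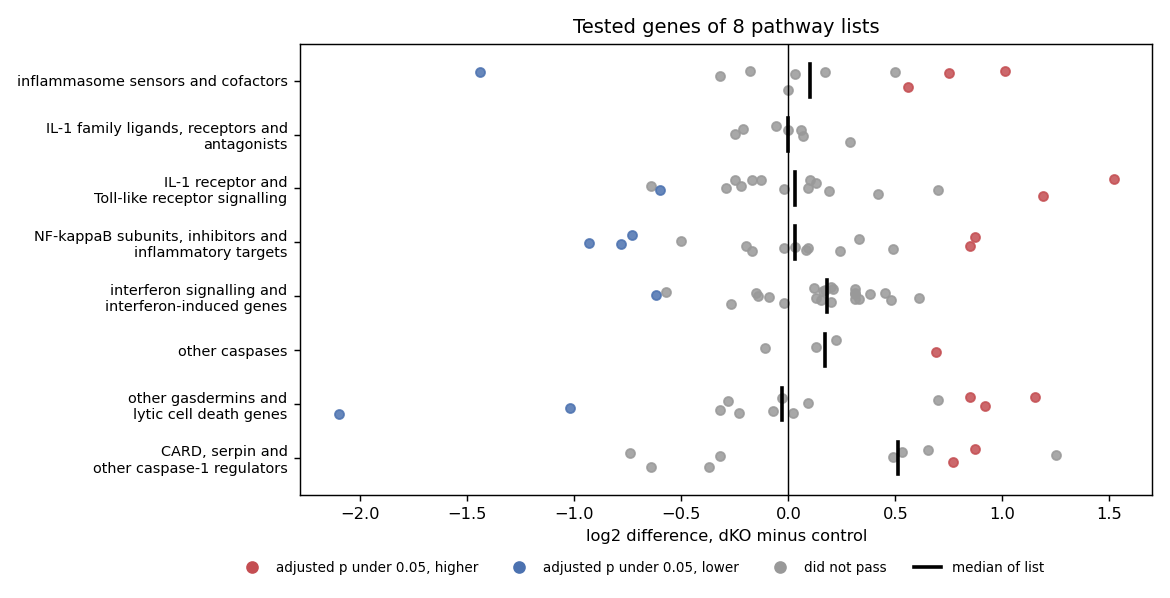
Log2 difference between dKO and control (horizontal axis) of each tested gene of 8 pathway lists (rows, with random vertical scatter), coloured by whether the limma fit over all genes called it higher (red) or lower (blue), with the list median as a black bar. Medians lie between -0.03 and 0.51, and Gsdme at -2.10 and Tlr4 at 1.52 are the lowest and highest genes.

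The genes whose values followed those of Casp1 most closely over the 6 arrays were Ankrd42, Kcnip3, Crabp1, Plscr1, Pfkp, Clca3a2, Aldh1a7 and Efna3, with Pearson's r from 0.997 to 0.999. With 2 groups far apart, r mostly follows the group difference, and 67 genes had r of at least 0.99. Plscr1, a phospholipid scramblase, read 8.20, 8.02 and 8.02 in control and 9.61, 9.65 and 9.71 in dKO nerves. Crabp1, which binds retinoic acid, and Aldh1a7, an aldehyde dehydrogenase, differed by 5.52 (SE 0.35) and 4.25 (SE 0.18). Kcnip3, a calcium-binding protein, Pfkp, a phosphofructokinase, and Ankrd42 differed by 1.70, 1.76 and 2.34. Clca3a2 was under the limit on all 3 control arrays, and with those values set to 4 its dKO level was at least 6.21-fold higher. Efna3, an ephrin, was under it on 2 control arrays and 9.16-fold higher in the same way. With 1 array left out, 1 to 3 of these 8 genes were still among the closest 8. Among the inflammasome genes, r with Casp1 was 0.97 for Casp4, 0.94 for Il33, 0.80 for Gsdmd, 0.48 for Casp12, -0.65 for Il1b, -0.74 for Nlrp3 and -0.81 for Pycard.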

How the data were processed

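Total sciatic nerve RNA was measured on Affymetrix whole-genome mouse arrays, 1 per sample, per the labels' protocols. The authors deposited 1 value per probe set, which is log2 expression judged from its range. The submitters' processing notes name GCOS 1.2 and GCRMA, with settings and genome build not given in the sources used here. Over all probe sets every array had a median of 5.77, so a shift common to all of them cannot be seen. Of 45101 probe sets, 34958 had 1 symbol, 932 had several and 9211 had none here. Gene IDs gave current symbols through a RefSeq table of GRCm38.p6 (204 IDs not found). Genes of log2 at least 4 on at least 3 arrays were tested with limma 3.58.1 (lmFit and eBayes, no covariates, Benjamini-Hochberg over 14550 genes, threshold 0.05, two-sided) in R 4.3.3. The number of arrays limits the precision (median SE 0.17). The fit was tested on simulated data.

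The inflammasome genes and the 8 pathway and 11 marker lists were chosen with earlier results of these data known. Named genes were these genes, Hdac1 and Hdac2, up to 4 called genes of each list with the largest differences (up to 2 where 0 were called), 10 further genes fixed by name, the 8 genes most like Casp1 and the neighbours of the caspase genes. Genes outside that rule (Rela, Tnfrsf1a, Tyrobp, C1qa, Aim2, Nek7, Casp2, Casp6, Casp9, Sox10 and genes under the limit) were named after their values were seen. So were Laptm5, Csf1r, Cd163, Fcer1g, Adgre1, Col1a1, Col3a1 and Cdh5. Protein sequences were not used here, and Gsdmd was not matched to a promoter window. Alternatives were low-value limits of 3 and 6 and no filter, averaged probe sets, arrays centred on their median over the tested genes (which differed slightly between arrays), a replicate block, an intensity trend and each array left out.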

Additional observations from a re-analysis of the deposited data

How the results depend on the processing

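Over 13 alternatives, 3 or 4 of the 9 inflammasome genes were called. Nothing is read from this count, because the choice of genes used this comparison. The differences of Casp1, Casp4 and Il33 stayed at 3.85 to 4.27, 1.78 to 1.98 and 1.57 to 1.90. The count of all genes called was 2557 to 3479 with all arrays, and 2131 to 2872 with 1 array left out, the lowest without dKO 2. With 1 array left out, 12 to 16 genes of the pathway lists and 9 to 17 of the marker lists were called. Of the 8 genes most like Casp1, 3 had a Spearman's rho of 1, as did 142 genes in all, and 1 to 3 remained with 1 array left out. Deviations from the group means of same-numbered arrays had r = 0.039, -0.122 and -0.235 for replicates 1, 2 and 3. Differently numbered arrays had r from -0.16 to 0.215. With 3 arrays per group, these values cannot tell whether the numbers pair the samples. A replicate block gave 2557 called genes, 4 inflammasome genes, 14 pathway genes and 20 marker genes. The share of called genes that were higher in dKO was 57.3%, and 49.4% with each array centred on the median of its tested genes. Among 51 named list genes, 0 calls changed sign, 94 of the gene and setting pairs lost a call and 2 gained one (Tek and Pecam1, with the replicate block). The cause of these changes was not tested, and each left-out fit also had fewer arrays. Values near the limit of 4 (Nlrp3, Il1b, Il18) cannot show small changes.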

Other observations

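The marker lists of other nerve cells gave these values in the same fit. Of 7 pericyte and smooth muscle markers, 3 rose (beside 12.6% of all tested genes), with a median of 0.64, and of 0.28 with probe sets averaged, among them the potassium channel gene Kcnj8 (1.32, SE 0.19, limma adjusted p = 0.00201) and its partner Abcc9 (0.69, adjusted p = 0.00703). Rgs5 rose by 0.64, a call lost with any 1 array left out (adjusted p up to 0.117). Of 7 endothelial markers limma called 0, and 2 had an unadjusted p under 0.05. With probe sets averaged 1 was called higher. This was Cdh5, which differed by 0.82 (limma adjusted p = 0.00998), beside 0.49 (adjusted p = 0.15) for its brightest probe set. Tek and Pecam1 differed by 1.12 (adjusted p = 0.114) and 0.66 (adjusted p = 0.117). The difference was 0.54 for Tek without control 1 and 0.42 for Pecam1 without dKO 2. Of 6 tested Schwann cell lineage markers, Erbb3 and S100b fell by 1.33 each (adjusted p = 0.00684 and 0.00761) and Ngfr, a neurotrophin receptor gene of immature Schwann cells, rose by 1.0 (adjusted p = 0.00419). Beside these 3 called Schwann cell markers stand 22.0% called of all tested genes. Skeletal muscle, adipocyte and keratinocyte lists held 1 gene called higher (Mylpf, 0.62), 0 called, with 0 at an unadjusted p under 0.05, and 1 called lower (Krt10, -0.62). The calls of Mylpf and Krt10 were lost with some arrays left out (adjusted p up to 0.107 and 0.1).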
